A study of Saccharomyces cerevisiae with 8 samples.

Results

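The 10 named transcripts described here had the largest Upf1p-TAP over mock ratios among genes measured in affinity selections of budding yeast, apart from 2 others given below. They are ISC10, LPX1, YBP1, SHU2, CNM1 and RRT13, together with YGR127W, YOL029C, YER187W and YNL162W-A, which have no standard name, and are 10 of 5656 genes that a probe set of exactly 1 gene reported. Each was reported by 1 such probe set, so 10 of 9275 probe sets tested carry the values below. The members were chosen by their Upf1p-TAP over mock ratio on the same 8 arrays that are given here. Their ratios, p-values and the gap between the groups are therefore a description and support nothing.

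Upf1p is an RNA helicase and a core factor of nonsense-mediated mRNA decay (NMD), the pathway that removes mRNAs on which ribosomes stop too early. Besides mRNAs with nonsense mutations, known yeast substrates include normal mRNAs with upstream reading frames, with start codons that ribosomes scan past, with frameshift sites or with retained introns. Upf1p bound to an mRNA can be pulled from a cell extract by a tag on the protein, and the RNA that comes with it can be identified.

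RNA was recovered with TAP-tagged Upf1p (4 arrays, the Upf1p-TAP group) or in mock selections run alongside (4 arrays, the mock group), in numbered pairs, and read on Affymetrix S98 yeast arrays, where each transcript is probed by a set of short oligonucleotides. The TAP tag is a tandem affinity tag that binds IgG. Cells of both groups were grown in YEPD, a rich medium. The labels name neither the strain nor what the mock extracts carried in place of the tagged protein. Matched amounts of RNA from both groups were carried into the final cleanup, so a ratio compares the makeup of 2 RNA pools, and more binding cannot be told apart from a larger share of a smaller pool. Array medians lay between 66.3 and 78.1 in the Upf1p-TAP group and between 58.2 and 67.4 in the mock group, in scaled intensity units. NAM7, the gene of Upf1p, had signals of 5.83, 20.1, 12.9 and 17.5 in Upf1p-TAP replicates 1 to 4, against 28.7, 55.3, 76.4 and 41.7 in mock replicates 1 to 4. Whether the tag interrupts the sequence its probes read was not analysed here.

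**Figure D1:**
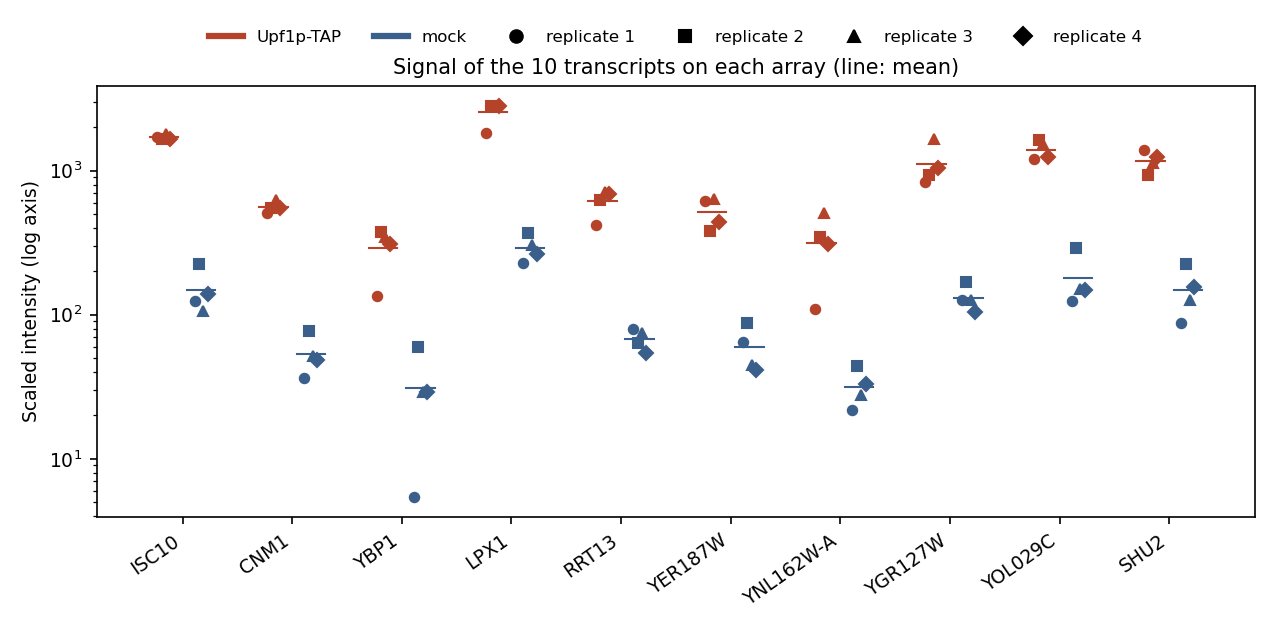
Scaled intensity (log axis) of the 10 transcripts on each array, Upf1p-TAP replicates (red) left of mock replicates (blue), with a line at each group mean. Every transcript has its 4 Upf1p-TAP arrays above its 4 mock arrays, and YBP1 in mock replicate 1 is the dimmest point at 5.42.

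ISC10 encodes a protein needed for sporulation, the programme in which starved diploid cells pass through meiosis and form spores. Its signal was 1719.5, 1661, 1782 and 1651 in Upf1p-TAP replicates 1 to 4, against 124, 224, 105 and 140.2 in mock replicates 1 to 4. The Upf1p-TAP arrays were nearly level and the mock arrays were all far below them. Upf1p-TAP arrays averaged 1703 ± 60.2 and mock arrays 148 ± 52.3 (SD, n = 4 each), which on the log2(intensity + 4.09) scale is a ratio of 3.54 (SE 0.22), or 11.6-fold. This was the highest ratio of all 9275 probe sets.

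LPX1 encodes a lipase of the peroxisome, the organelle that breaks down fatty acids. Its signal was 1822, 2824, 2808 and 2812 in Upf1p-TAP replicates 1 to 4, against 227, 369, 305 and 263 in mock replicates 1 to 4. Upf1p-TAP replicate 1 stood below the other three arrays of its group, and mock replicate 1 was also the lowest of its group. The pairs therefore gave nearly equal ratios, between 2.92 and 3.40, the narrowest spread of the 10 transcripts (SD 0.21 over 4 pairs). The fitted log2 ratio was 3.12 (SE 0.17, 8.70-fold).

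YBP1 encodes a protein that binds the transcription factor Yap1p and is needed for its activation by hydrogen peroxide. It had signals of 134, 376, 348 and 307 in Upf1p-TAP replicates 1 to 4, against 5.42, 59.7, 29.0 and 29.1 in mock replicates 1 to 4. Replicate 1 was the lowest array in both groups. The log2 ratio was 3.27 (SE 0.25) and reached 3.86 in pair 1, where the mock signal was near the offset of 4.09. With a higher offset, the 25th percentile of all values, the ratio of YBP1 was 2.76. The laboratory strain W303 is known to carry a mutant allele of YBP1. Whether these cells carried it was not tested.

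SHU2 encodes a subunit of the Shu complex, which helps load the recombinase Rad51p on DNA during repair of damaged replication forks. Its signal was 1399, 926, 1123 and 1242 in Upf1p-TAP replicates 1 to 4, against 88.2, 224, 127 and 157 in mock replicates 1 to 4. Replicate 2 was the lowest Upf1p-TAP array and the highest mock array. The ratio was 2.03 in pair 2 and 3.93 in pair 1, the widest spread of the 10 transcripts (SD 0.78 over 4 pairs), with a fitted value of 3.00 (SE 0.28, 8.02-fold).

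CNM1 encodes a protein of the contact sites between the nucleus and mitochondria. It had 508, 546, 630 and 552 in Upf1p-TAP replicates 1 to 4, against 36.6, 76.7, 51.5 and 48.7 in mock replicates 1 to 4, a log2 ratio of 3.33 (SE 0.22, 10.1-fold). As for ISC10, the arrays with the tag were close together, with a coefficient of variation of 9.12% for CNM1 and 3.53% for ISC10, against 31.5% and 35.2% in the mock arrays.

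RRT13 encodes a short protein that resembles Cdc4p, the F-box protein that selects cell cycle proteins for ubiquitination. Its signal was 419, 629, 713 and 686 in Upf1p-TAP replicates 1 to 4, against 79.3, 63.6, 74.6 and 54.3 in mock replicates 1 to 4. Its log2 ratio was 3.08 (SE 0.23). A further probe set is assigned to RRT13 and CDC4 together, and had 352, 510.5, 733 and 543 in Upf1p-TAP replicates 1 to 4, against 179, 71.8, 200 and 86.4 in mock replicates 1 to 4. The log2 ratio of that shared probe set was 2.04 (SE 0.29, adjusted p = 0.00104). The probe set of CDC4 alone had signals of 73.6, 99.3, 161 and 85.1 with the tag, against 80.4, 72.0, 136 and 81.4 in the mock, and its groups overlapped. Its log2 ratio of 0.16 (SE 0.21) did not pass the test (adjusted p = 0.608). The shared probe set thus differed between the groups and the one read by CDC4 alone was not shown to; which of the transcripts the shared probes bound was not tested.

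The other four have no standard gene name and encode proteins of unknown function. YGR127W had 835, 924, 1652 and 1037 in Upf1p-TAP replicates 1 to 4, against 126, 168, 126 and 105 in mock replicates 1 to 4, a log2 ratio of 3.01 (SE 0.24). YOL029C had 1197, 1619, 1535 and 1233 in Upf1p-TAP replicates 1 to 4, against 125, 291, 151 and 148 in mock replicates 1 to 4, a ratio of 3.00 (SE 0.20). In both, the groups were far apart, with the highest Upf1p-TAP signal in replicate 3 for YGR127W and in replicate 2 for YOL029C. YER187W, which lies close to a chromosome end with 5 annotated genes beyond it, had 614, 382, 633 and 441 in Upf1p-TAP replicates 1 to 4, against 64.8, 88.1, 44.7 and 41.6 in mock replicates 1 to 4, a ratio of 3.06 (SE 0.27). YNL162W-A, the shortest reading frame of the set at 219 bases, had 110.2, 344, 504 and 307 in Upf1p-TAP replicates 1 to 4, against 21.8, 43.9, 27.6 and 33.3 in mock replicates 1 to 4, a ratio of 3.02 (SE 0.29). Its Upf1p-TAP signals were the most variable of the set (coefficient of variation 51.2%). With the higher offset the YNL162W-A ratio was 2.66.

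All 10 transcripts had an adjusted p under 0.05 from limma and 1 direction in 4 of 4 pairs. Both were conditions of the rule that chose them, with a mean Upf1p-TAP level above that of the median probe set. They were then picked for the size of the ratio, so nothing is read from this. Over all 9275 probe sets 1642 were called higher, 17.7%, and 1249 lower, 13.5%. With each array centred on its median, 1310 were higher and 1759 lower, and the median ratio of all probe sets was -0.14 in place of 0.00. Upf1p-TAP and mock signals of the 10 transcripts did not overlap, which also held with Upf1p-TAP above mock for 14.9% of all probe sets. The lowest Upf1p-TAP signal was between 2.25 times (YBP1) and 7.37 times (ISC10) the highest mock signal of the same probe set. The median ratio of the 10 was 3.07.

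**Figure D2:**
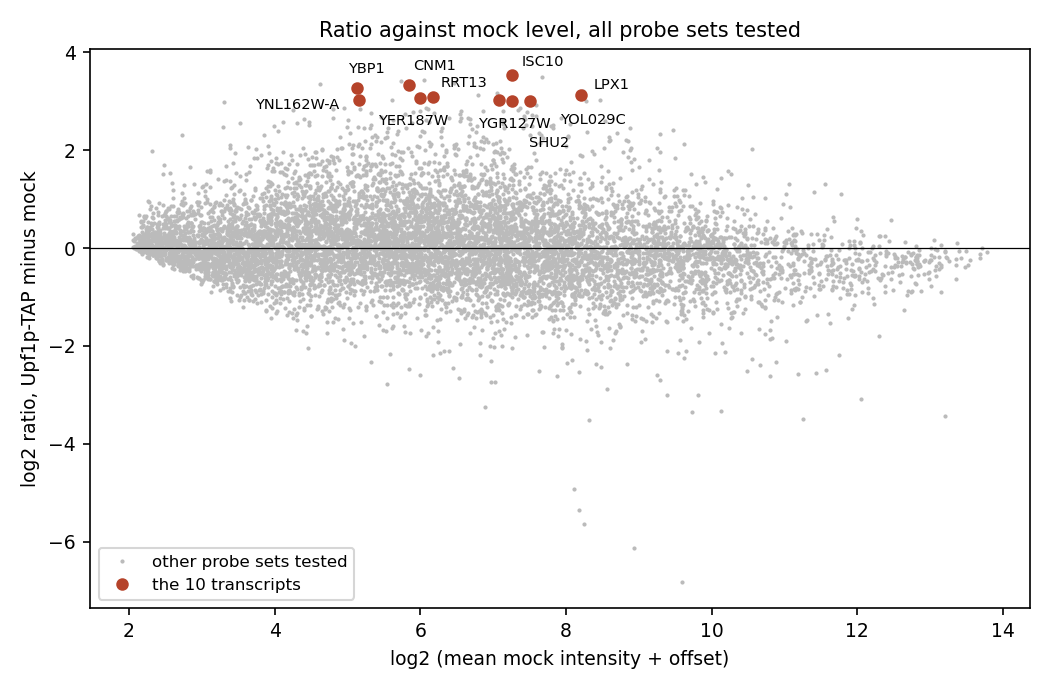
Log2 ratio of Upf1p-TAP minus mock against the log2 mean mock intensity for all 9275 probe sets tested (grey) and the 10 transcripts (red, named). The 10 lie between 3.00 and 3.54 on the ratio axis, at mock means between 30.8 and 291 intensity units, and the brightest mock probe sets at the right have no such ratios.

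At the lower edge of the set, SHU2 and YOL029C were just inside, with unrounded values that both print as 3.00. Just below came APL3 (2.87), a clathrin adaptor subunit gene, ADE2 (2.86) of purine synthesis, and PET18 (2.84). SDL1 (3.36), an annotated pseudogene, and HIS3 (3.17), a histidine synthesis gene and common strain marker, ranked among the 10 under the same rule and are not members. The ratios below and above the edge differ by less than the SE of any of the 10. A total of 22 probe sets were at or above the ratio of SHU2, and 10 of these have no gene in the platform table. Over all 9275 probe sets tested, 2443 have none. The ratios of the 10 unnamed probe sets lay between 3.01 and 3.50 and their mean Upf1p-TAP signals between 389 and 2845 units. The highest of these ratios had an SE of 0.51, with pairs between 1.91 and 5.90. Unnamed probe sets thus made up as many of the strongest ratios as the 10 named transcripts did.

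The ratios of the 10 transcripts differed among the pairs. Pair 2 gave the lowest ratio for 8 of the 10, and pair 1 for RRT13 and YNL162W-A. The same count was not made over all probe sets, and the 10 were chosen by these ratios, so it is a description. The median ratio of the 10 was 3.19, 2.67, 3.46 and 3.27 in pairs 1 to 4, whereas over the 1642 probe sets called higher it was 1.00, 1.09, 1.21 and 1.26. Mock replicate 2 was the highest mock array for 9 of the 10, all but RRT13, against 29.9% of all probe sets. A high mock replicate 2 lowers the ratio of pair 2 by arithmetic, so these counts are not separate observations. Upf1p-TAP replicate 1 was the lowest array of its group for 7 of the 10, against 34.4% of all probe sets. Among the 10 unnamed probe sets at or above the ratio of SHU2, pair 2 was the lowest for 7, mock replicate 2 was the highest mock array for 9, and Upf1p-TAP replicate 1 was the lowest of its group for 3. Without replicate 2 the median ratio of the 10 named transcripts was 3.27.

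**Figure D3:**
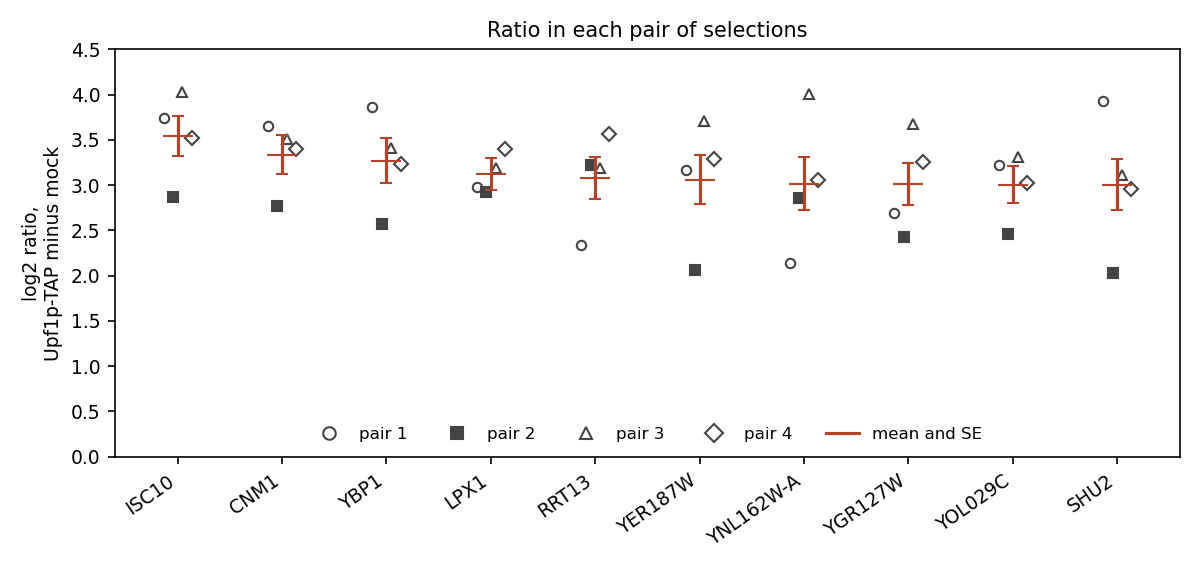
Log2 ratio of Upf1p-TAP minus mock in each of the 4 pairs (symbols, pair 2 filled) with the fitted mean and its SE (red) for the 10 transcripts. Every value lies at 2.03 or above, and pair 2 is the lowest for 8 transcripts, with SHU2 at 2.03 and YER187W at 2.07.

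The genes with the most similar profile were found by Pearson correlation with the mean standardised log2 signal of the 10 over the 8 arrays, leaving the 10 out. They were PAU23 of the seripauperin cell wall family, the copper transporter gene CTR3, the mannosyltransferase gene KTR7, uncharacterised YER076C and DLS1, which encodes a chromatin remodelling subunit. Their correlations lay between 0.994 and 0.997. The arrays form 2 groups, so such values reflect mostly the difference between them, and they are a description. The log2 ratios of these genes were 1.87, 1.24, 1.73, 2.52 and 2.18. Each was below those of the 10, which choosing the 10 for the highest ratios largely fixed in advance. PAU genes are close copies, and the PAU23 probe set may read several of them.

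Most of the members have reading frames shorter than the median gene. Against the median of 1203 bases of all annotated protein-coding genes, 8 of the 10 members were shorter. Their coding lengths ran from 219 bases (YNL162W-A) to 2025 bases (YBP1), with a median of 738, and 9 of the 10 were below the median of 1249.5 bases of the 5486 measured protein-coding genes. Genes called higher had a median of 1146 bases (1105 genes) and genes called lower 1155 bases (755 genes). ISC10 has 804 bases, CNM1 1215, LPX1 1164, RRT13 558, YER187W 426, YGR127W 939, YOL029C 606 and SHU2 672. The share without a standard name was 4 of 10, against 8.09% of measured protein-coding genes and 10.7% of those called higher. ISC10, RRT13 and YER187W lie on chromosome V, which holds 4.78% of annotated protein-coding genes. CNM1 and YBP1 are on chromosome II, LPX1 and YOL029C on XV, SHU2 on IV, YGR127W on VII and YNL162W-A on XIV. By their systematic names 5 are on the Watson strand and 5 on the Crick strand. None overlapped another gene in the RefSeq table of assembly R64. These are descriptions of 10 genes. Upstream reading frames, start codon context, introns and untranslated regions, the features that could make a normal mRNA an NMD substrate, were not analysed here.

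The genes beside the 10 on the chromosome were not used to choose them. Ratios of these genes below those of the 10 were largely fixed by choosing the 10 for the highest ratios. Of 20 flanking genes, 17 had a probe set of exactly 1 gene. In limma's test over all probe sets 4 of the 17 were higher, 3 lower and 10 did not pass. Of all probe sets 17.7% were higher and 13.5% lower, and of the 5486 protein-coding genes 20.1% and 13.8%. The median ratio of the flanking genes was 0.01, and they ranged from -0.88 to 1.26. It was 0.82 for the 7 on the strand of the member (3 higher, 1 lower) and 0.01 for the 9 on the other strand (1 higher, 1 lower). For the tRNA gene SUP19 the strand was not assigned. Upstream genes had a median of 0.63 (9 genes, 3 higher, 2 lower) and downstream genes -0.11 (8 genes, 1 higher, 1 lower).

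YAP7, upstream of YOL029C on the same strand and encoding a transcription factor, had the highest ratio (1.26, SE 0.36, adjusted p = 0.0252). In pair 1 its ratio was -0.14. YBR062C, downstream of CNM1 on the same strand, had a mean of 1351 with the tag against 717 in mock arrays, and its log2 ratio was 0.92 (SE 0.16, adjusted p = 0.00302). ECM2, a splicing factor gene upstream of CNM1, had a ratio of 0.82 (adjusted p = 0.0301), and ATG12, an autophagy gene upstream of YBP1, had 0.71 (adjusted p = 0.0326). Both flanks of CNM1 passed the test, with ratios of 0.92 and 0.82 against 3.33 for CNM1, which was chosen for its ratio. The Upf1p-TAP and mock signals of ECM2 overlapped and its call did not hold in all alternatives. The lower flanking genes were the tRNA gene SUP19 upstream of RRT13 (-0.88, adjusted p = 0.0118), the oligosaccharyltransferase gene OST3 downstream of LPX1 (-0.63, adjusted p = 0.0367) and PET100 upstream of SHU2 (-0.61, adjusted p = 0.0402). Upf1p-TAP and mock signals also overlapped for YAP7, ATG12, OST3 and PET100, and did not for YBR062C and SUP19. The SUP19 probe set is of a kind that may read several similar tRNAs.

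DMC1, the meiotic recombinase gene next to ISC10, had a ratio of 0.52 that did not pass (adjusted p = 0.191). WHI5, upstream of LPX1 on the same strand, had 1.00 and did not pass (adjusted p = 0.0572), though it did without replicate 1 (1.49, adjusted p = 0.00599), and UTP8, next to YGR127W, had 0.01. The counts of higher and lower flanking genes were 4 and 1 without replicate 1, 1 and 0 without replicate 2, 2 and 1 without replicate 3, 1 and 2 without replicate 4, and 1 and 1 without the pair block. The call of YBR062C held in all 11 alternatives. That of SUP19 ended in 1 (without replicate 2, adjusted p = 0.0609), of YAP7 in 4, of ECM2, OST3 and PET100 in 5 each and of ATG12 in 7. Their highest adjusted p was 0.105 for YAP7, 0.0974 for ECM2, 0.134 for OST3, 0.150 for PET100 and 0.0958 for ATG12.

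**Figure D4:**
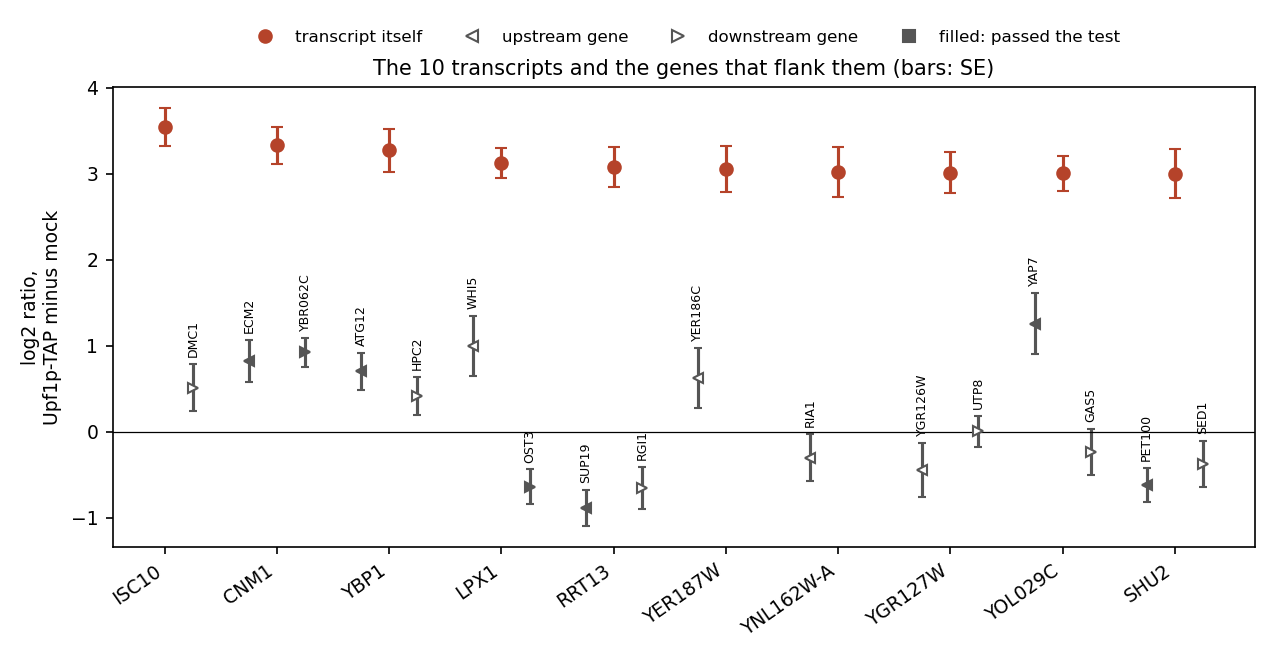
Log2 ratio of Upf1p-TAP minus mock (bars: SE) for the 10 transcripts (red) and for the upstream and downstream genes with a probe set of their own (grey, filled where limma's test passed). The flanking genes lie between -0.88 and 1.26, and all 10 transcripts, chosen for the highest ratios, lie at 3.00 or above.

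Partner genes, which work with a member or in the same process or structure, were listed for 6 of the 10. SCF genes were listed because RRT13 resembles CDC4, and whether RRT13 works with them was not tested. In all, 62 of the 63 listed genes were measured. Of these, 16 were higher, 3 lower and 43 did not pass, with a median ratio of 0.23. That is 25.8% higher and 4.84% lower, against 20.1% higher and 13.8% lower of all 5486 protein-coding genes. The 3 lower calls became 1 without replicate 1 and 1 without replicate 3.

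The SCF complex is the ubiquitin ligase in which F-box proteins such as Cdc4p work. Of 7 SCF genes 4 were higher and 0 lower, with a median ratio of 0.99. HRT1, the RING subunit, had 931, 1646, 1535 and 1008 in Upf1p-TAP replicates 1 to 4, against 197, 284, 207 and 187 in mock replicates 1 to 4. Its groups were far apart, and its ratio was 2.50 (SE 0.19, adjusted p = 4.50e-05). CDC34, the ubiquitin-conjugating enzyme, had a ratio of 1.79 (SE 0.24, adjusted p = 7.11e-04), and SKP1, the adaptor that holds F-box proteins, had 1.21 (SE 0.18, adjusted p = 0.00116). The fourth was the F-box gene MET30 (0.99, adjusted p = 0.0104), named after its value was seen. CDC53, the scaffold, had 0.23, and the F-box gene GRR1 had -0.45, neither passing the test.

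Of the 7 measured genes of the Shu complex and of proteins that assist Rad51p, 3 were higher and 0 lower, with a median of 0.48. CSM2, a Shu subunit, had 66.1, 88.1, 183 and 149.7 in Upf1p-TAP replicates 1 to 4, against 19.2, 27.9, 22.9 and 29.5 in mock replicates 1 to 4, a ratio of 2.03 (SE 0.26, adjusted p = 5.88e-04). SHU1, another subunit, had 95.3, 101, 138 and 147 in Upf1p-TAP replicates 1 to 4, against 40.9, 41.4, 42.1 and 44.3 in mock replicates 1 to 4, a ratio of 1.40 (SE 0.21, adjusted p = 0.00132). Groups of both did not overlap. PSY3, the remaining subunit, had 0.06 (SE 0.21, adjusted p = 0.867). RAD57 had 0.91 (adjusted p = 0.0156), a call that ended without replicate 2 or 4 (adjusted p = 0.0565 and 0.0887).

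Of 22 sporulation genes 6 were higher and 1 lower, with a median of 0.33. SPS4 (1.86, adjusted p = 3.88e-04), ADY3 (1.84, adjusted p = 5.71e-04) and SPO21 (1.74, adjusted p = 4.56e-04) had the smallest p-values. SPO21 encodes a protein of the spindle pole plaque where spore membranes start. SPS1 (1.68, adjusted p = 0.00245), IME2 (0.81, adjusted p = 0.0238) and SMK1 (0.84, adjusted p = 0.0468) were the other higher ones, picked out with their values known. The call of SMK1, whose groups overlapped, ended in 5 of 10 alternatives (highest adjusted p = 0.184, without replicate 4), and that of IME2 in 4 of 10 (0.0921, without replicate 2). The lower one, NDT80 (-0.69, adjusted p = 0.0438), is the transcription factor of mid-sporulation genes. NDT80 is named outside the naming rule, and leaving out any 1 of the replicates or using no offset ended its call. In 12 of the 22 both group means were below the 25th percentile of all values (16.0 units), where a change would be hard to see. ISC10 itself had a mock mean of 148.

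Of 11 peroxisome genes 2 were higher and 2 lower, with a median of 0.22. The catalase gene CTA1 had a ratio of 1.97 (SE 0.24, adjusted p = 4.52e-04), and PEX17, named after its value was seen, had 0.72 (adjusted p = 0.0343). PEX14, which encodes a docking factor for protein import, was lower (-0.99, adjusted p = 0.00755), as was CIT2, the citrate synthase of the glyoxylate cycle (-0.97, adjusted p = 0.0330). The call of PEX17 ended without any 1 of the replicates, and also with quantile normalization or median centring. That of CIT2 ended without replicate 1 or 3 (adjusted p = 0.127 and 0.120). PEX5, the import receptor for proteins such as lipases with a C-terminal signal, had 0.22 and did not pass.

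In the Yap1p peroxide response 0 of 8 genes passed in either direction by limma, and 0 also had an unadjusted p under 0.05. YAP1 itself had 0.17 (SE 0.26) and YBP2, a relative of YBP1, had -0.15 (SE 0.22). Of 7 genes of mitochondrial contact sites 1 was higher, MDM12 of the tether between mitochondria and the endoplasmic reticulum (1.30, SE 0.19, adjusted p = 0.00119), and 0 were lower. TOM70, whose product is a receptor on the mitochondrial surface, had 0.20 and did not pass.

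**Figure D5:**
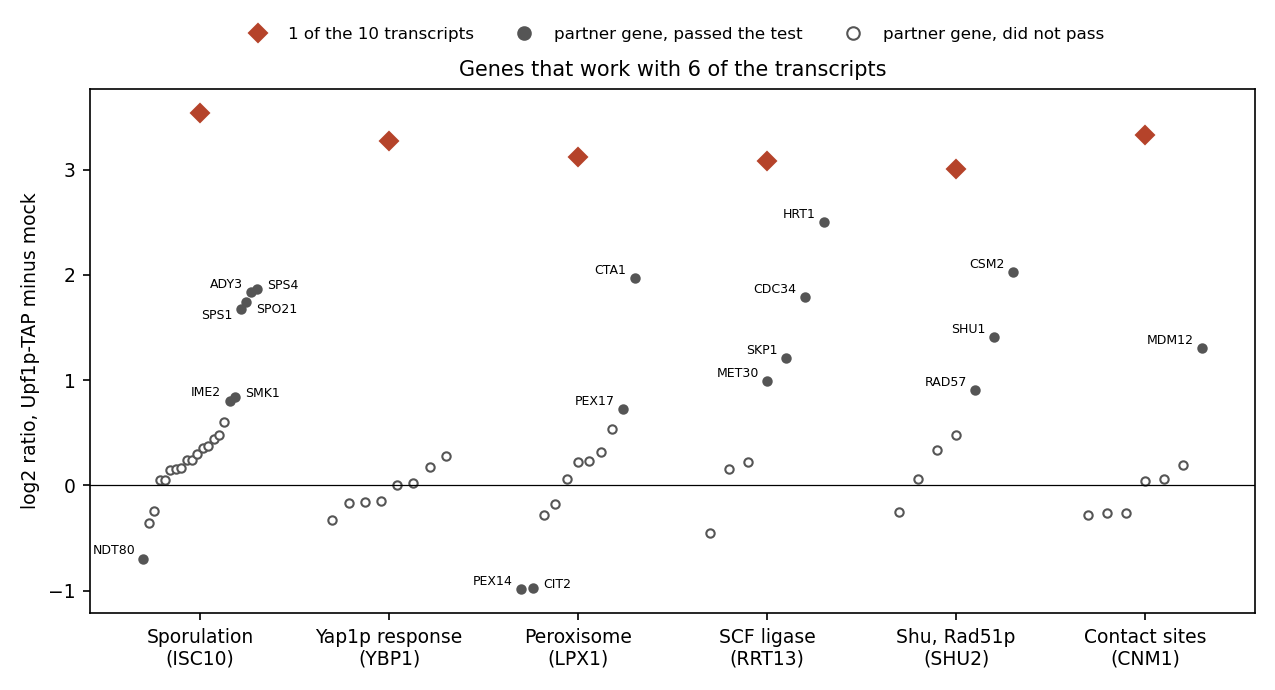
Log2 ratio of Upf1p-TAP minus mock for the partner genes listed for 6 of the transcripts, by list. Symbols are filled and named where limma's test passed, and the transcript itself is a red diamond. The SCF list rests on the likeness of RRT13 to CDC4. HRT1 at 2.50 is the highest partner gene. Every partner gene lies below the transcript of its list, which choosing the transcripts for the highest ratios largely fixed in advance.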

How the data were processed

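The deposited values are linear array intensities in a single table, made with GCOS, the array maker's software, per the submitters' processing notes, which give no version. The deposited intensities were already scaled, since the trimmed mean of every array (2% left out at each end) lay between 250.2 and 250.3. Depth does not apply; the number of arrays (8) limits the precision.

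Of 9335 probe sets, 60 controls were left out. The platform table gave 1 gene for 6504 of the 9275 tested, several for 328 and none for 2443, with symbols updated through RefSeq. The file names no genome build, so no coordinates are given; lengths and neighbours come from the RefSeq table of assembly R64.

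limma 3.58.1 in R 4.3.3 was fitted to log2(intensity + 4.09), where 4.09 is the 10th percentile of all tested intensities, with the pair as a block and an intensity trend in eBayes. P-values are two-sided and Benjamini-Hochberg adjusted over all 9275, with a threshold of 0.05. Pairing comes from the series' design text. Deviations of same-numbered arrays from their group means correlated at 0.18 to 0.55 and those of differently numbered arrays at -0.54 to 0.35, so some of these were as alike as pairs. The labels do not say that cultures were separate, so the p-values reflect only how far these selections varied, which may be technical. The script was tested on simulated data.

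Members, lists and rules were chosen with earlier results of these data known. Named besides the members were the 3 genes ranked next and those ranked among them, NAM7, flanking genes past the test, up to 3 genes per partner list with the smallest p, and the 5 genes of most similar profile. Any other gene with a value (flanking genes that did not pass, CDC4, YBP2, further list genes) was named after its value was seen. A gene with several probe sets was shown by a plain one, then the brightest. Alternatives were the offset, scaling, a filter on dim probe sets, the pair block, the intensity trend and leaving out each pair.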

Additional observations from a re-analysis of the deposited data

Results flagged for a closer look

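In LPX1, Upf1p-TAP replicate 1 (signal 1822) stood apart from the other three arrays of its group (2808 to 2824). Its gap to the nearest array was 0.987 of the group's range of log2 signal, above Dixon's critical value for 4 samples. Of 22 groups of 4 arrays looked at (the 10 transcripts and the probe set shared by RRT13 and CDC4, in both groups), 1 was flagged, and chance flags about 1 in 20. Without replicate 1 the log2 ratio of LPX1 was 3.17.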

How the results depend on the processing

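The 10 transcripts kept their direction and their call in all 11 alternatives, with log2 ratios between 2.66 and 3.76 and a highest adjusted p of 0.00101; since they were chosen for this ratio, that is no independent support. Of 91 other probe sets followed (all flanking and partner genes measured and the other genes of the naming rule), 38 were called, of which 26 kept the call in every alternative run on them, 12 lost it in at least 1 and 0 changed sign. Of the 53 not called, 21 changed sign in at least 1 alternative, CDC4 among them, and 3 were called in at least 1 (WHI5, RGI1 and YER186C). Over all probe sets, leaving out 1 pair gave 1076 to 1384 higher and 775 to 953 lower, with both lowest counts without replicate 4. Higher calls were 56.8% of all calls, 49.6% after quantile normalization and 42.7% after median centring. Among the flanking genes, leaving out 1 pair gave 1 to 4 higher and 0 to 2 lower. Median centring gave 2 higher and 4 lower, and quantile normalization 3 higher and 4 lower. Without the replicate block there was 1 higher and 1 lower. Among partner genes, leaving out 1 pair gave 12 to 14 higher and 1 to 2 lower. Without the replicate block the calls of ECM2 (adjusted p = 0.0505), ATG12 (0.0631), OST3 (0.0870), YAP7 (0.0544) and PET100 (0.0857) ended, and no other call among the 91 changed. Leaving out a pair leaves fewer samples; the cause of the other changes was not tested. Dim signals limit what can be seen. The lower ratios of YBP1 and YNL162W-A at the higher offset follow by arithmetic from adding a larger constant to dim mock signals.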
